A study of Glycine max with 4 samples.

Results

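The leaf response to drought was compared between 2 soybean (Glycine max) lines: for each gene, the change under drought in PI 567690 minus the change under drought in Pana. The groups were PI 567690 under drought, PI 567690 control, Pana under drought and Pana control, with 3 libraries each. PI 567690 is labelled drought tolerant and Pana drought susceptible, and the title of the series sets them apart by the wilting of the canopy. Plants grew in a soil and sand mix, water was withheld from the V5 stage for 15 days in the drought groups, and leaf tissue is labelled as of the R2 stage. Gene models were included by 1 rule, at least 1 FPKM in 3 or more libraries, which 32697 of 54175 passed. FPKM is a count of sequenced fragments divided by gene length and library size. The table gives gene models by identifier and pairs none of them with a name. None of the identifiers (0 of 54175) matched the RefSeq table used here, so no gene function is given, and the label of leaf tissue was not checked against marker genes. The first digits of an identifier are the chromosome, and the digits after the letter g run along it.

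A line by drought difference is an interaction: the effect of the treatment depends on the genotype. As background, leaves that dry close their stomata under the hormone abscisic acid, make protective proteins and solutes, and slow their growth and photosynthesis. Lines that wilt late or early can differ in how soon the leaf reaches that state, in which genes answer, or in the level from which each gene starts. The difference of responses does not separate these cases, so the genes are given below by which line moved, in which direction, and from which level. In bulk leaf RNA, fewer cells of a type and less RNA per cell cannot be told apart.

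Several libraries stood apart from their group. PI 567690 drought libraries 2 and 3 were nearly the same (r = 0.992 across genes), while 4 drought libraries correlated better with a library of the other line than with any of their own group. Pana drought library 3 did so with PI 567690 control library 1 (0.938, against at most 0.863 within its group). Pana drought libraries 1 and 2 were nearest to PI 567690 drought library 1 (0.92 and 0.936, against 0.901), and that library was nearest to Pana drought library 2 (0.936, against 0.925). Pana control library 1 also stood apart, with at most 0.864 within its group, against 0.964 between Pana control libraries 2 and 3. Its FPKM values summed to 917256, against 674026 to 772891 in the other libraries. The labels were checked on genes with a gap of 2-fold or more between the lines in every other library. Of 126 such genes, Pana drought library 1 held 44 (34.9%) at the level of PI 567690 and 56 at the level of Pana. Pana drought library 3 held 20 of 93 (21.5%) at the PI 567690 level, and PI 567690 drought library 1 held 11 of 94 (11.7%) at the Pana level. In each of the 9 other libraries at most 4.11% of such genes stood at the level of the other line. The smallest FPKM steps put the depth of the libraries at 48.3% to 100% of the deepest. The median SD of a gene on the log2 scale was 0.213 and 0.139 in PI 567690 drought and control, and 0.427 and 0.426 in Pana drought and control. The fit used 1 spread per gene for both lines.

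The response to drought differed between the lines in 1829 genes, 5.59% of those tested (limma, adjusted p under 0.05). The difference, PI 567690 minus Pana, was positive in 444 genes (1.36%) and negative in 1385 (4.24%). Among the called genes the median absolute difference was 2.08 on the log2(FPKM + 1) scale, against 0.52 over all tested genes. The count was 1104 without Pana control library 2. Leaving out PI 567690 control library 2 gave 876, and leaving out control library 3 gave 786. With PI 567690 drought library 1, 2 or 3 left out it was 1131, 982 and 981, and with drought libraries 2 and 3 averaged into 1 it was 999. Without Pana drought library 1 there were 2290 called genes, without Pana drought library 3 there were 2007, and with both left out 1111 (172 positive and 939 negative). Leaving out library 1 of both drought groups gave 1586. In all 12 fits that each left out 1 library, 739 of the 1829 genes (40.4%) were called with the same sign.

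**Figure D1:**
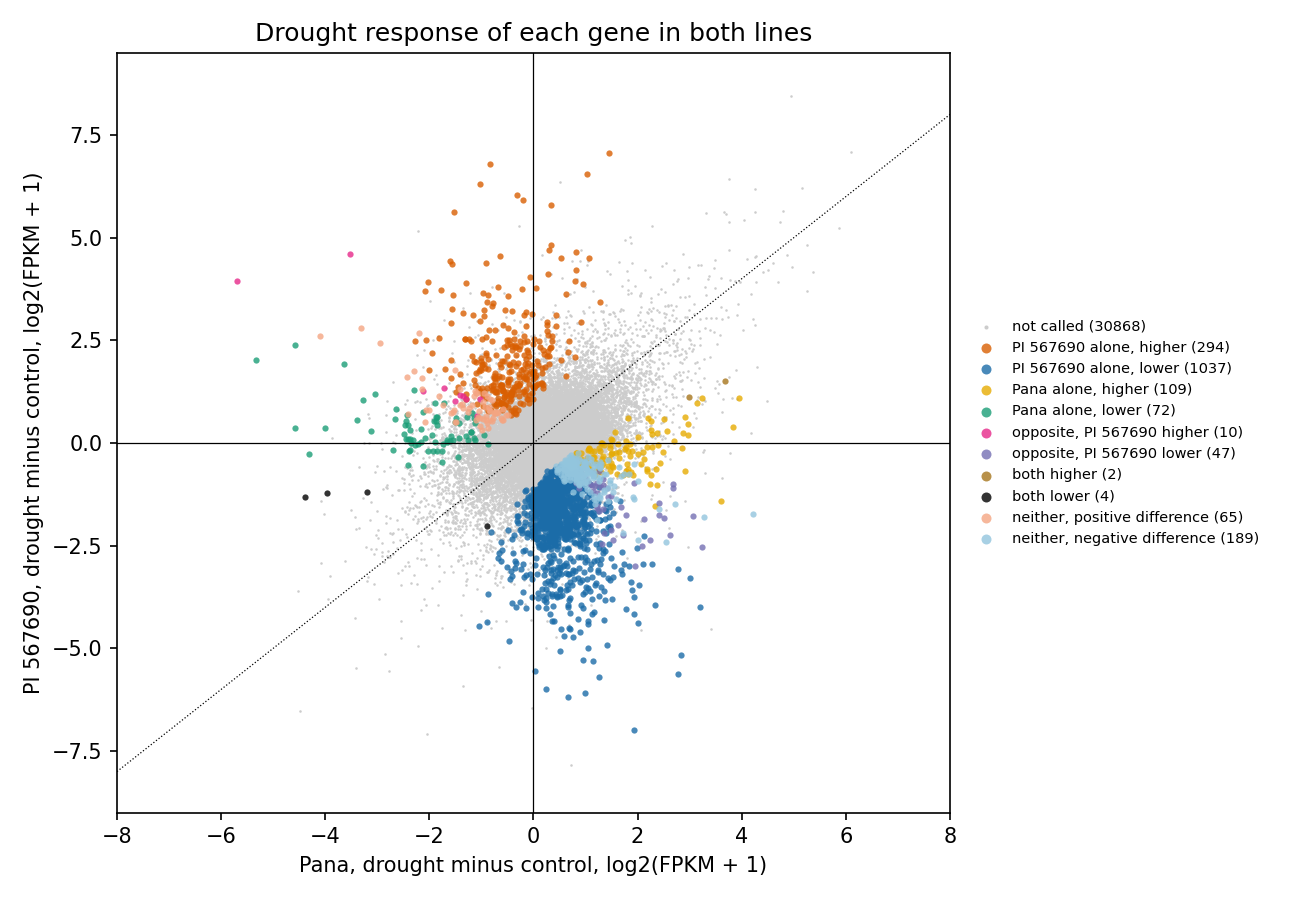
Each point is 1 of the 32697 tested genes, with its drought response in Pana on the x axis and in PI 567690 on the y axis, both as log2(FPKM + 1) differences. Grey genes were not called, colours give the classes of the 1829 called genes with their numbers, and the dotted line marks equal responses. The 1037 genes that fell in PI 567690 alone form the cloud below the origin.

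The called genes were sorted by their drought contrast in each line, a line counting as moving where its own adjusted p was under 0.05. Over all tested genes that contrast passed in 12.3% in PI 567690 (6.06% higher and 6.25% lower under drought) and in 2.15% in Pana (1.5% higher and 0.658% lower). The largest class, 1037 genes or 56.7% of the called ones, fell in PI 567690 and did not pass in Pana. Another 294 (16.1%) rose in PI 567690 and did not pass in Pana. In Pana 109 genes (5.96%) rose and 72 (3.94%) fell where PI 567690 did not pass. Opposite changes that passed in both lines were seen in 57 genes, 10 higher in PI 567690 and lower in Pana and 47 lower in PI 567690 and higher in Pana. In 6 genes both lines moved the same way by unequal amounts, 2 higher and 4 lower. In the remaining 254 genes neither line passed although the difference did, with 65 positive and 189 negative differences. A line that did not pass is not shown to be without a response. The shared spread gives both lines the same SE although Pana libraries varied more. With 1 variance per line instead, 868 genes fell and 251 rose in PI 567690 alone, while 3 rose and 4 fell in Pana alone and 3 changed in opposite directions. The classes in which both lines moved the same way then held 4 and 3 genes, against 2 and 4 with the shared spread.

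The classes depend on that rule, on the settings of the fit and on single libraries. The class falling in PI 567690 alone had 536 genes with a pseudocount of 0.1 and 1655 with no filter on low values. Among genes averaging 5 FPKM or more, 142 fell and 132 rose in PI 567690 alone. At an adjusted p under 0.01, 328 fell and 52 rose in PI 567690 alone, and with its drought libraries 2 and 3 averaged 649 fell and 119 rose. With array weights per library the largest class was that rising in Pana alone, with 3598 genes, against 2688 that fell in PI 567690 alone. With an unadjusted p under 0.05 taken as movement, 619 genes changed in opposite directions, 138 higher and 481 lower in PI 567690, and the PI 567690 classes held 218 and 773 genes. The class falling in PI 567690 alone had 561 and 505 genes with PI 567690 control library 2 or 3 left out, and 572, 638 and 640 with its drought library 1, 2 or 3 left out. Leaving out PI 567690 control library 1, 2 or 3 left 180, 96 and 82 genes rising in PI 567690 alone, and leaving out its drought library 1, 2 or 3 left 186, 118 and 113. With Pana control library 2 left out there were 187. The class rising in Pana alone grew to 623 genes with Pana control library 3 left out and to 345 with Pana drought library 3 left out. It shrank to 34 with Pana control library 2 left out, and to 72 with Pana drought library 1 left out. Leaving out PI 567690 control library 1, 2 or 3 gave 58, 41 and 42, and leaving out PI 567690 drought library 2 or 3 gave 42 and 45. For the class falling in Pana alone, leaving out Pana drought library 3 gave 162 and leaving out Pana control library 3 gave 141. With Pana control library 2 left out it had 39, and with Pana drought library 1 left out 37. Leaving out PI 567690 control library 2 or 3 gave 36 and 31, and leaving out PI 567690 drought library 2 or 3 gave 35 and 36.

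Pana drought library 3, which lay near the controls, was examined gene by gene. Without it, 881 of the 1037 genes that fell in PI 567690 alone stayed in that class, 69 became opposite, 11 fell in both lines and 76 were no longer called. Of the 294 genes that rose in PI 567690 alone, 217 stayed, 19 became opposite, 8 rose in both lines and 50 were no longer called. Of the 189 genes with a negative difference and no line past the threshold, 72 then rose in Pana alone and 30 fell in PI 567690 alone. Without Pana drought library 1, 1007 of the 1037 genes stayed in their class and 22 were no longer called. Without Pana drought library 2, 873 of them stayed and 133 were no longer called. Of the 109 genes that rose in Pana alone, 54 stayed without Pana drought library 1, and 38 had neither line past the threshold. Without Pana drought library 2, 49 of the 109 stayed.

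**Figure D2:**
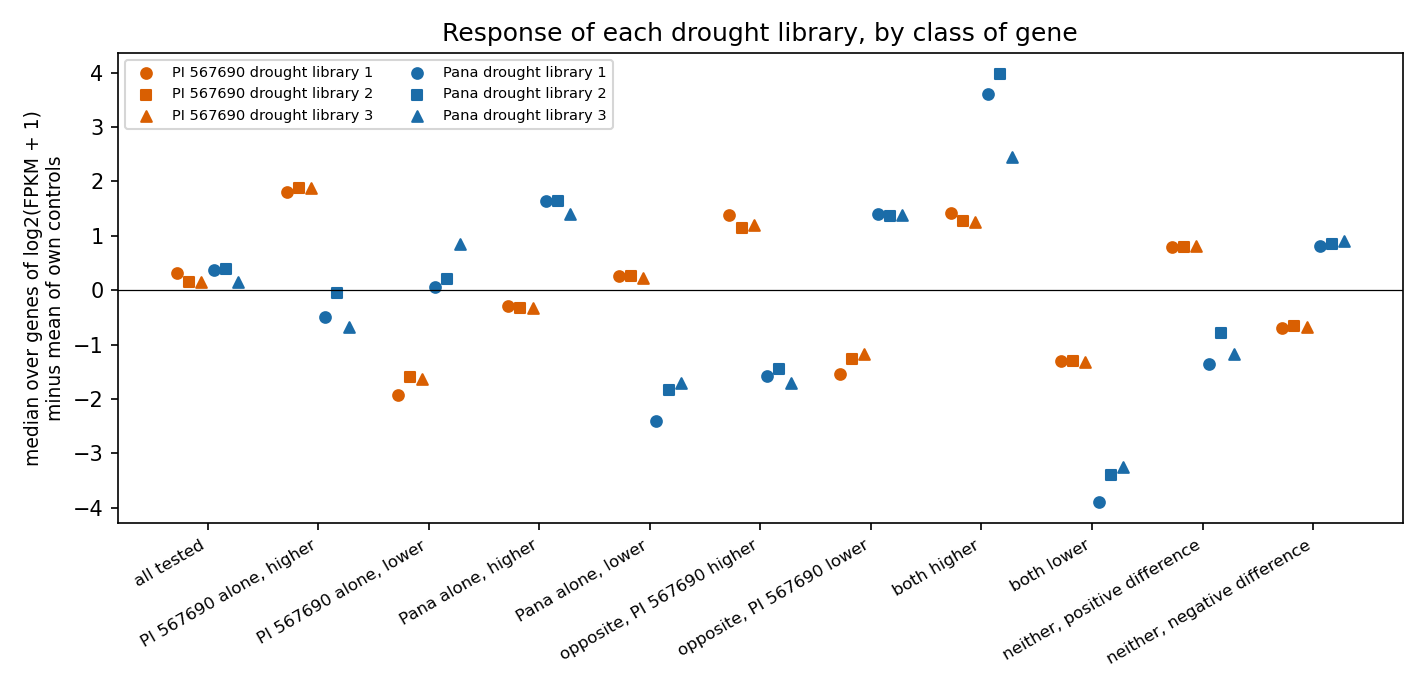
For each class of called genes, and for all tested genes, points give the median over genes of the log2(FPKM + 1) level in 1 drought library minus the mean of the controls of its own line. PI 567690 drought libraries (orange) stand left of Pana drought libraries (blue). In the genes falling in PI 567690 alone, the PI 567690 libraries lie at -1.93, -1.6 and -1.63 and the Pana libraries at 0.06, 0.21 and 0.85.

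In each class of genes moving in 1 line alone, the drought libraries of that line had medians of the same sign. The sorting favours this. In genes that moved in PI 567690 alone, the Pana drought libraries lay further apart than those of PI 567690. In genes that fell in PI 567690 alone, the medians of the PI 567690 drought libraries against their own controls were -1.93, -1.6 and -1.63, and those of the Pana drought libraries 0.06, 0.21 and 0.85. Here Pana drought library 3 was the highest of the 3. In genes that rose in PI 567690 alone, the medians were 1.8, 1.88 and 1.88 in the PI 567690 drought libraries and -0.49, -0.05 and -0.68 in the Pana drought libraries. In genes that rose in Pana alone, they were -0.29, -0.33 and -0.32 in PI 567690 and 1.64, 1.65 and 1.41 in Pana. In genes that fell in Pana alone, they were 0.26, 0.27 and 0.23 in PI 567690 and -2.41, -1.84 and -1.71 in Pana. Over all tested genes the medians were 0.32, 0.15 and 0.15 in PI 567690 and 0.38, 0.39 and 0.16 in Pana. These medians describe genes that were sorted on the same libraries. When libraries were scaled to a common median ratio, the median response of all tested genes was -0.03 in PI 567690 and 0.1 in Pana, against 0.21 and 0.32 as deposited.

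The 4 group levels show where the lines parted. In genes that fell in PI 567690 alone, the median level was 0.563 FPKM in droughted PI 567690, 4.94 FPKM in its controls, 1.07 FPKM in droughted Pana and 0.367 FPKM in Pana controls. Well-watered PI 567690 thus stood above the other 3 groups. In genes that rose in PI 567690 alone, the order was turned round: 16.4 FPKM in droughted PI 567690, 2.73 FPKM in its controls, 9.15 FPKM in droughted Pana and 12.6 FPKM in Pana controls. Genes that rose in Pana alone had medians of 6.06 and 7.38 FPKM in droughted and control PI 567690, and of 7.59 and 1.26 FPKM in droughted and control Pana. Genes that fell in Pana alone had medians of 1.95 and 1.09 FPKM in droughted and control PI 567690, and of 1.75 and 11.7 FPKM in droughted and control Pana. In these 4 classes the medians that stood apart were those of the well-watered plants of the line that moved. The genes were sorted on the same libraries, so this is a description. Of the genes that fell in PI 567690 alone, 250 passed the filter on low values through its controls alone. So did 17 of those that fell in Pana alone, through the Pana controls. Medians without these genes were not computed.

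Over the 1829 called genes the absolute log2 difference between the lines had a median of 0.34 under drought and of 1.76 under control. Over all tested genes these medians were 0.22 and 0.46. The 3 libraries that held line-parting genes at the level of the other line were all drought libraries. Without them, a choice made after the data were seen that leaves 2 PI 567690 libraries and 1 Pana library, the median under drought was 0.27 over the called genes and 0.26 over all tested genes. By construction the difference of responses is the gap between the lines in droughted plants less their gap in controls, from the same libraries, so these values are a description. In the 57 genes with opposite changes the medians also crossed. The 47 that fell in PI 567690 and rose in Pana stood at 2.42 and 8.14 FPKM in droughted and control PI 567690, and at 3.53 and 0.558 FPKM in droughted and control Pana. The 10 that rose in PI 567690 and fell in Pana stood at 5.33 and 1.43 FPKM in droughted and control PI 567690, and at 2.8 and 14.7 FPKM in droughted and control Pana.

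**Figure D3:**
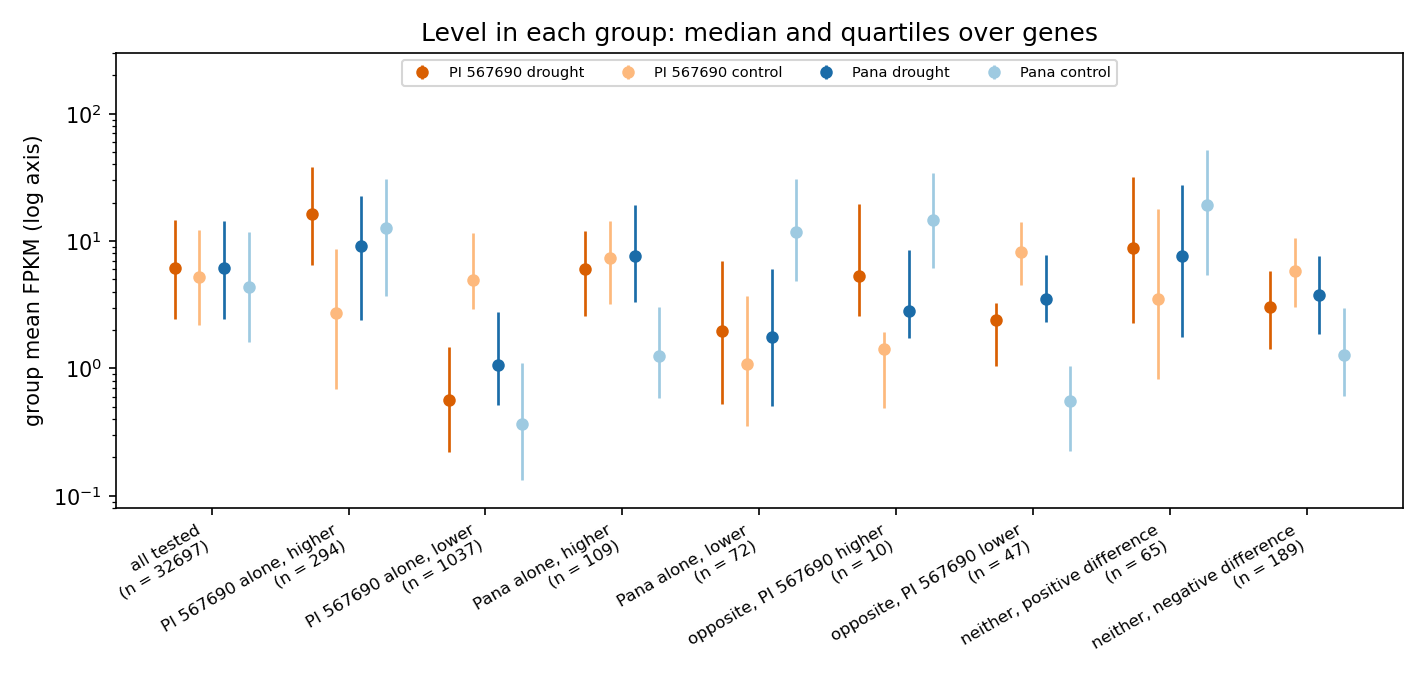
Points are medians over genes of the group mean FPKM on a log axis, and bars run between the quartiles, for all tested genes and for each class of 10 or more called genes. Within a class the groups run PI 567690 drought, PI 567690 control, Pana drought and Pana control. In the genes falling in PI 567690 alone the PI 567690 controls have a median of 4.94 FPKM, against 0.563, 1.07 and 0.367 FPKM in the other groups.

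Positive and negative differences lay at unlike mean levels over the 12 libraries. The median of this mean was 9.79 FPKM in genes with a positive difference and 2.25 FPKM in genes with a negative one, against 5.74 FPKM over all tested genes. The same libraries make the difference, so the mean partly restates it. In PI 567690 controls the medians were 2.42 FPKM (positive), 5.32 FPKM (negative) and 5.23 FPKM (all tested). In Pana controls they were 13.5, 0.514 and 4.36 FPKM. Below a mean of 1 FPKM, 11.6% of the 2258 tested genes had a negative difference and 1.15% a positive one. The filter on low values shapes this range: 282 of the 2258 genes reached 1 FPKM in the PI 567690 controls alone, and 177 of those were among the 262 with a negative difference. At 50 FPKM and above, 0.953% of 2098 genes had a negative difference and 2.91% a positive one. The 2 shares were closest between 10 and 50 FPKM, at 1.71% negative and 1.79% positive of 8730 genes.

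Many of the falling genes were near silence in droughted PI 567690 and in Pana controls, and fewer in droughted Pana. Of the 1037 genes that fell in PI 567690 alone, 584 (56.3%) were below 1 FPKM in every droughted PI 567690 library, 269 (25.9%) in every droughted Pana library and 653 (63%) in every Pana control library. None of them (0%) was below 1 FPKM in every PI 567690 control library. Over all tested genes these shares were 5.69% in droughted PI 567690, 6.58% in its controls, 3.38% in droughted Pana and 9.65% in Pana controls. A gene below 1 FPKM in Pana controls cannot fall there by more than 1 on the log2(FPKM + 1) scale. In this class 250 genes reached 1 FPKM in the 3 PI 567690 control libraries and in no other and passed the filter on low values through that group alone. Of all 358 tested genes that passed in this way, 251 (70.1%) were called, so a high share of calls comes with this way through the filter. Of 59 tested genes that passed through the PI 567690 drought libraries alone, 10 were called, all of them rising in PI 567690 alone. Through the Pana controls alone 36 tested genes passed, and 17 were called, all of them falling in Pana alone. These shares of calls were lower than 70.1%.

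Replicate levels parted cleanly in the line that moved, which the sorting favours. In the 1037 genes that fell and the 294 that rose in PI 567690 alone, the drought and control libraries of that line did not overlap in any gene, against 63.8% of all tested genes without overlap. In Pana 301 (29%) of those that fell and 62 (21.1%) of those that rose were without overlap between drought and control, against 19.8% of all tested genes.

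Single genes show the 4 main classes. Glyma04g36480 had the lowest p of the difference among genes that rose in PI 567690 alone. It stood at 65.04, 169.5 and 175.7 FPKM in droughted PI 567690, against 2.468, 0.8045 and 1.642 FPKM in its controls. In Pana it stood at 16.13, 24.84 and 24.15 FPKM under drought, against 33.51, 58.92 and 128.8 FPKM under control. The PI 567690 groups were far apart, and the Pana drought libraries all lay below the Pana controls. The log2 change was 5.63 ± 0.5 (SE) in PI 567690 (adjusted p = 0.000212) and -1.53 ± 0.5 in Pana (0.0978), with a difference of 7.16 ± 0.71 (0.00123). The most abundant gene of the class was Glyma14g10660, at 3012, 3862 and 3823 FPKM in droughted PI 567690, against 466.5, 216 and 172.5 FPKM in its controls. In Pana it held 1516, 1891 and 1626 FPKM under drought, against 2980, 1367 and 1028 FPKM under control. The Pana groups overlapped, and both lay above the PI 567690 controls. The log2 change was 3.77 ± 0.5 (SE) in PI 567690 and 0.05 ± 0.5 in Pana, and the difference was 3.72 ± 0.71 (adjusted p = 0.0131). Its call was lost without PI 567690 control library 3 (adjusted p = 0.0534), without Pana drought libraries 1 and 3 (0.0598) and with no filter on low values (0.0543).

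**Figure D4:**
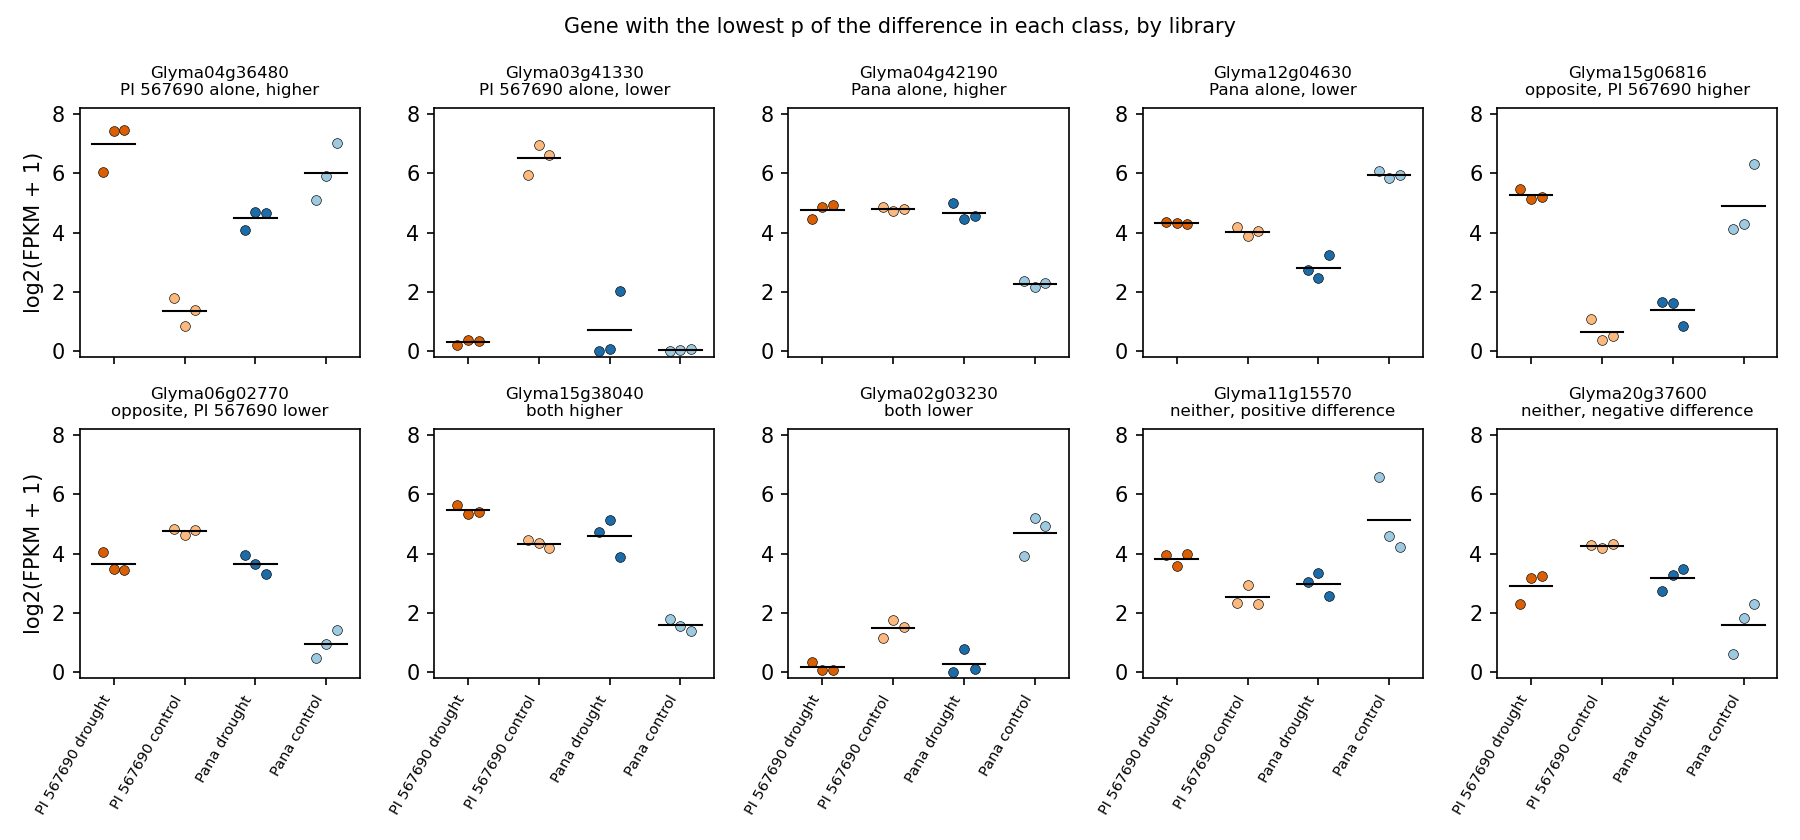
Points are the log2(FPKM + 1) levels of the 12 libraries and bars the group means, for the gene with the lowest p of the difference in each of the 10 classes. Groups run PI 567690 drought, PI 567690 control, Pana drought and Pana control. In Glyma03g41330 the PI 567690 controls stand above every other library, and in Glyma04g42190 the Pana controls stand below every other library.

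Glyma03g41330 had the lowest p among genes that fell in PI 567690 alone. It held 0.1723, 0.3083 and 0.2658 FPKM in droughted PI 567690, against 60.77, 121.9 and 97.39 FPKM in its controls. In Pana it was listed at 0, 0.05356 and 3.101 FPKM under drought, against 0, 0.03178 and 0.04944 FPKM under control. The gene was thus high in well-watered PI 567690 and near 0 in all other libraries but Pana drought library 3. The log2 change in PI 567690 was -6.18 ± 0.46 (SE), and the difference was -6.85 ± 0.65 (adjusted p = 0.000898). Glyma08g18200, the most abundant gene of the class, held 16.64, 15.89 and 11.98 FPKM in droughted PI 567690, against 1432, 472.3 and 667.1 FPKM in its controls. Droughted Pana held 32.92, 8.624 and 266.7 FPKM, against 7.956, 6.141 and 3.184 FPKM in Pana controls. Here too Pana drought library 3 was the highest Pana library, and every Pana drought value was above every Pana control value. The difference was -8.4 ± 1.29 (SE, adjusted p = 0.00591).

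Glyma04g42190 had the lowest p among genes that rose in Pana alone. It was level in PI 567690, with 21.1, 27.86 and 29.46 FPKM under drought and 27.96, 25.5 and 26.72 FPKM under control. The Pana drought libraries stood at 30.98, 20.97 and 22.76 FPKM, against 4.183, 3.463 and 3.909 FPKM in the Pana controls. Droughted Pana lay within the range of PI 567690 extended by less than 2 FPKM, and the Pana controls lay far below. The log2 change was -0.04 ± 0.21 (SE) in PI 567690 and 2.4 ± 0.21 in Pana, with a difference of -2.44 ± 0.3 (adjusted p = 0.00255). Glyma19g01860, the most abundant gene of this class, held 125.9, 205.5 and 201.7 FPKM in droughted PI 567690 and 143.8, 235.3 and 187 FPKM in its controls. Its levels in Pana were 119.6, 200.1 and 94.51 FPKM under drought, against 34.34, 23.86 and 27.44 FPKM under control. The difference was -2.27 ± 0.48 (SE, adjusted p = 0.0196). Leaving out Pana control library 2 ended its call (adjusted p = 0.0553), as did leaving out PI 567690 control library 2 (0.0639), control library 3 (0.0589) or drought library 1 (0.0512), and a fit with 1 variance per line (0.0574).

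Glyma12g04630 had the lowest p among genes that fell in Pana alone. It held 19.49, 18.95 and 18.64 FPKM in droughted PI 567690 and 17.24, 13.65 and 15.54 FPKM in its controls. In Pana it held 5.659, 4.564 and 8.418 FPKM under drought, against 66.08, 55.94 and 60.09 FPKM under control. The PI 567690 libraries lay between the Pana groups, so the order of the lines turned with the treatment. The log2 change was 0.29 ± 0.22 (SE) in PI 567690 and -3.13 ± 0.22 in Pana, with a difference of 3.42 ± 0.32 (adjusted p = 0.000761). Glyma14g37440, the most abundant gene of the class, held 47.18, 6.727 and 6.426 FPKM in droughted PI 567690, against 2.587, 1.466 and 3.674 FPKM in its controls. Droughted Pana held 2.002, 30.85 and 11.92 FPKM, against 286.2, 1032 and 268.3 FPKM in Pana controls. The difference was 7.35 ± 1.28 (SE, adjusted p = 0.00861), and the change in PI 567690, 2.02 ± 0.9, did not pass (0.159).

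Genes with opposite changes passed in each line. Their difference is made of both changes, from the same libraries, so its own pass adds no separate support. Glyma15g06816 held 43.2, 34.21 and 35.87 FPKM in droughted PI 567690, against 1.124, 0.3056 and 0.4272 FPKM in its controls. The Pana drought libraries stood at 2.136, 2.07 and 0.8262 FPKM, against 16.35, 18.66 and 77.79 FPKM in the Pana controls. It was on in droughted PI 567690 and in well-watered Pana, with no overlap within either line. The difference was 8.13 ± 0.69 (SE, adjusted p = 0.000491). Glyma02g37990 moved likewise, with 13.62, 36.83 and 37.22 FPKM in droughted PI 567690 against 2.255, 0.6074 and 0.08257 FPKM in its controls. Its levels in Pana were 1.498, 10.19 and 15.51 FPKM under drought, against 331.4, 232.9 and 821.4 FPKM under control. For this gene the droughted lines overlapped. In the other direction, Glyma06g02770 held 15.51, 10.29 and 9.922 FPKM in droughted PI 567690, against 27.33, 23.77 and 26.91 FPKM in its controls. In Pana it held 14.54, 11.47 and 8.914 FPKM under drought, against 0.3941, 0.9508 and 1.716 FPKM under control. The droughted lines met at one level from opposite sides, and the difference was -3.76 ± 0.4 (SE, adjusted p = 0.00145). Glyma06g03080 crossed instead, with 7.912, 11.02 and 11.54 FPKM in droughted PI 567690 against 34.96, 30.11 and 32.58 FPKM in its controls. Droughted Pana held 54.8, 33.05 and 26.17 FPKM, against 15.51, 14.6 and 11.37 FPKM in Pana controls. The number of genes in these 2 classes ran from 2 to 36 and from 4 to 149 when 1 library was left out, the highest in both without Pana drought library 3. The lowest in the second was without Pana control library 2.

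Where both lines moved the same way, Pana moved further in 5 of the 6 genes. The exception, Glyma08g23600, fell by 2.03 ± 0.2 (SE) in PI 567690 and by 0.9 ± 0.2 in Pana on the log2 scale, and is named after its values were seen. Glyma15g38040 held 49.37, 39.25 and 41.21 FPKM in droughted PI 567690 against 21.05, 19.47 and 17.44 FPKM in its controls. The Pana drought libraries stood at 25.32, 34.04 and 13.81 FPKM, against 2.456, 1.955 and 1.659 FPKM in the Pana controls. The log2 change was 1.12 ± 0.29 (SE) in PI 567690 and 2.99 ± 0.29 in Pana, and the difference was -1.87 ± 0.41 (adjusted p = 0.0228). Leaving out Pana control library 2 ended this call (adjusted p = 0.0562). So did leaving out PI 567690 control library 1, 2 or 3 (0.0575, 0.0658 and 0.0561) and its drought library 2 or 3 (0.0649 and 0.0626), averaging the last pair (0.0639), leaving out library 1 of both drought groups (0.0546) and a pseudocount of 5 (0.104). Glyma02g03230 was listed at 0.2808, 0.05742 and 0.0495 FPKM in droughted PI 567690 against 1.233, 2.432 and 1.904 FPKM in its controls. In Pana it was listed at 0, 0.7232 and 0.07752 FPKM under drought against 14.19, 35.93 and 29.24 FPKM under control. The droughted lines both ended below 1 FPKM, from unlike starting levels (difference 3.06 ± 0.48 SE, adjusted p = 0.00602). With a pseudocount of 0.1 its call was lost (adjusted p = 0.0947). These 2 classes held 0 to 39 and 0 to 26 genes when 1 library was left out, the highest again without Pana drought library 3.

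In several places, neighbouring genes were called with the same sign. Of the 1818 called genes with a chromosome in the identifier, 258 (14.2%) stood next to another called gene of the same sign in the order of tested identifiers. The share that calls scattered over this order would reach was not computed, so the 14.2% is not shown to be an excess. The 6 runs of 4 or more neighbouring called genes of the same sign were all negative, and the longest held 8. They were found after the values were seen, and no test was made of them. Runs of 3 or more negative genes with fewer than 10 tested genes between them were joined, which gave 5 blocks of at least 4 genes on chromosomes 6, 9, 12 (2 blocks) and 19. In these blocks 54 of 63 tested genes had a negative difference (85.7%), against 4.24% of all tested genes, as the choice of the blocks requires.

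The block on chromosome 6 ran from Glyma06g43120 to Glyma06g43520 and held 29 tested genes, 23 of them with a negative difference. Its summed level was 7.811, 30.79 and 35.69 FPKM in droughted PI 567690, against 177.6, 142.4 and 236.8 FPKM in its controls. In Pana the sum was 71.82, 82.68 and 61.46 FPKM under drought, against 73.94, 14.81 and 11.65 FPKM under control. The PI 567690 controls were thus the highest libraries, and droughted Pana lay between the PI 567690 groups. On chromosome 9, from Glyma09g35460 to Glyma09g35570, 10 of 11 tested genes had a negative difference. Their summed level was 6.724, 19.8 and 16.39 FPKM in droughted PI 567690, against 241.8, 233.2 and 216.6 FPKM in its controls. In Pana it was 17.69, 18.26 and 64.64 FPKM under drought, against 35.67, 25.36 and 12.59 FPKM under control. The Pana groups overlapped there.

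On chromosome 12, from Glyma12g03870 to Glyma12g03971, 10 of 11 tested genes had a negative difference. The summed level was 0.3915, 16.35 and 13.07 FPKM in droughted PI 567690, against 154.5, 158 and 137.4 FPKM in its controls. In Pana it was 18.74, 17.84 and 43.97 FPKM under drought, against 12.9, 2.98 and 0.9864 FPKM under control. Every droughted Pana library was above every Pana control. The smaller blocks, from Glyma12g14900 to Glyma12g15110 and from Glyma19g07000 to Glyma19g07140, had 7 of 8 and 4 of 4 tested genes with a negative difference. Their summed levels were 3.7 ± 2.24 and 5.38 ± 0.398 FPKM in droughted PI 567690, against 28.3 ± 4.43 and 35.6 ± 7.22 FPKM in its controls (mean ± SD, n = 3). In Pana these sums were 9.43 ± 0.9 and 11.4 ± 5.07 FPKM under drought, against 3.53 ± 3.57 and 4.57 ± 1.56 FPKM under control. Over the 5 blocks the PI 567690 controls had the highest group mean in 62 of 63 genes. The drought mean was below the control mean in 63 of 63 genes in PI 567690 and above it in 54 of 63 in Pana, against 35.4% and 70.9% of all tested genes. The choice of runs with a negative difference favours all these counts. For the highest group mean, the share of all tested genes was not computed. In the fits that each left out 1 library, 17, 6, 9, 7 and 2 of the called genes of the 5 blocks, in the order given, kept their call every time. Neighbouring genes can be near-identical copies whose reads the authors' software could have split between them, so single values within a block are uncertain.

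**Figure D5:**
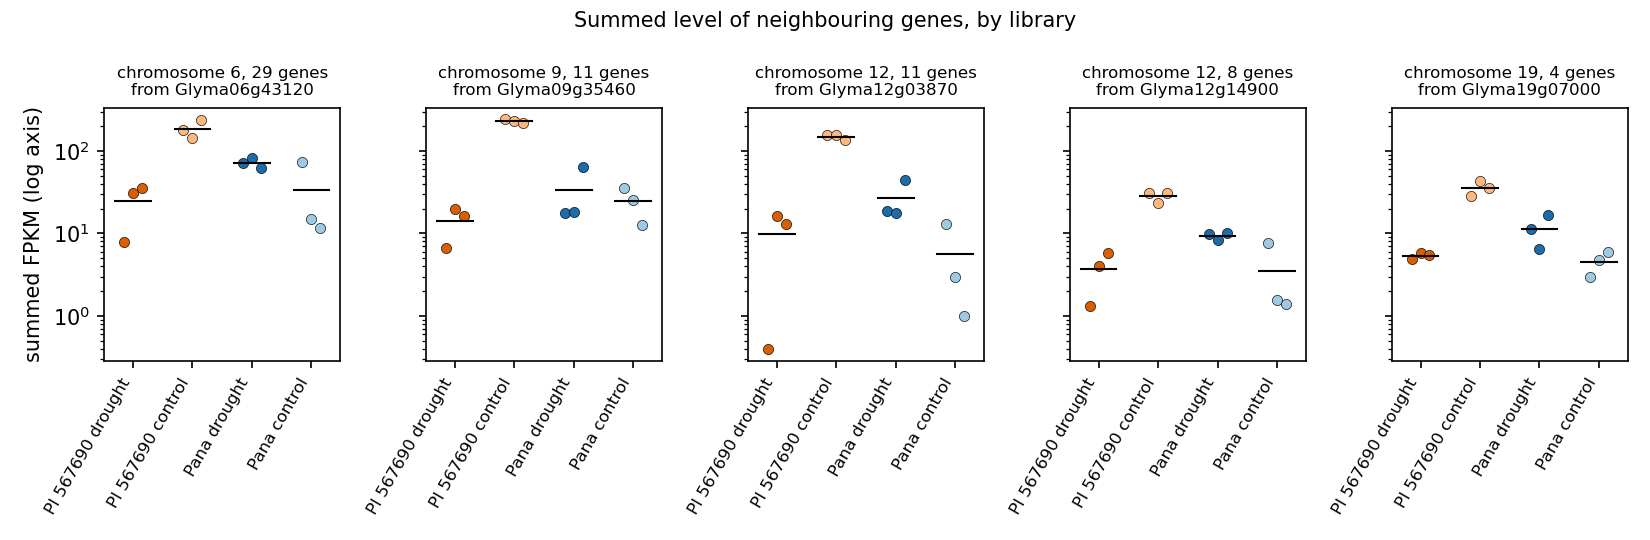
Points are the summed FPKM (log axis) of the tested genes of each block in each library, and bars are group means. Groups run PI 567690 drought, PI 567690 control, Pana drought and Pana control. In all 5 blocks the 3 PI 567690 control libraries lie above every other library, which the choice of the blocks favours.

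In the 254 genes where neither line passed, the median changes of the lines were of opposite sign. Over the 189 genes with a negative difference the medians were -0.7 in PI 567690 and 0.89 in Pana. Over the 65 genes with a positive one they were 0.79 and -1.06. Single genes had larger changes with a wide SE. Glyma13g31601 changed by 2.79 ± 1.04 (SE) in PI 567690 and -3.31 ± 1.04 in Pana, and Glyma09g37290 by -1.73 ± 1.05 and 4.22 ± 1.05. Glyma20g37600 held 3.923, 7.989 and 8.542 FPKM in droughted PI 567690 against 18.49, 17.19 and 19.05 FPKM in its controls. Its levels in Pana were 5.749, 8.663 and 10.21 FPKM under drought, against 0.5388, 2.596 and 3.973 FPKM under control. Neither line's groups overlapped, yet the changes of -1.36 ± 0.41 (SE) and 1.58 ± 0.41 missed the threshold (adjusted p = 0.0511 and 0.0644), and the difference of -2.94 ± 0.58 passed (0.0146). The call of Glyma20g37600 was lost in 2 of 27 alternatives, among them the fit without Pana drought libraries 1 and 3. Glyma11g15570 held 14.37, 11.03 and 14.77 FPKM in droughted PI 567690 against 4.094, 6.65 and 3.962 FPKM in its controls. In Pana it held 7.243, 9.139 and 4.934 FPKM under drought, against 94.8, 22.93 and 17.62 FPKM under control. The difference was 3.45 ± 0.71 (SE, adjusted p = 0.0182) and was lost without PI 567690 control library 3 (0.0557), without library 1 of both drought groups (0.0584) and without Pana drought libraries 1 and 3 (0.122). Few of these calls were stable: 3 of the 189 and 0 of the 65 genes kept the call of the difference in all 12 fits that left out 1 library, against 515 (49.7%) of the genes that fell in PI 567690 alone.

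The edges of the thresholds were as follows. The 50 called genes with the highest adjusted p (0.0471 to 0.0498) had a median absolute difference of 1.95, and the 50 uncalled genes with the lowest (0.05 to 0.0521) one of 1.72. Among the 1307 gene models that reached 1 FPKM in exactly 3 libraries, 288 were called, against 1829 of all 32697 tested (5.59%). Genes at this edge of the filter were thus called more often than tested genes in general. Another 1413 reached it in exactly 2 libraries and were left out, of which 157 were called when no filter was used. That fit called 2529 genes, and its share over all genes was not computed.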

How the data were processed

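The deposited values were taken as FPKM computed by the authors, a unit read from the values because the table does not name it. Per the submitters' processing notes, Cuffdiff, Cufflinks, FastQC and TopHat 1.4.1 were used, in roles the notes do not state, and per the series' design text the replicates are biological. Genome build and gene annotation: not given in the sources used here. Which plants a library came from is not labelled, and p-values therefore measure spread among these libraries, which may be technical. The 12 columns were placed in 4 groups by the line and treatment in their names.

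Gene models with at least 1 FPKM in 3 libraries were fitted as log2(FPKM + 1) by limma 3.58.1 under R 4.3.3, with 1 coefficient per group and a trend of the variance (8 residual and 3.42 prior degrees of freedom). P-values were adjusted by Benjamini-Hochberg over all 32697 genes. Log2 changes on this scale understate those of low genes. The fit was also run on simulated data, with independent libraries and 1 spread per gene for both lines. The Pana libraries here varied more, so that run does not test the fit under such unequal spread. The steps of FPKM values under 0.3 gave the relative depth, and the number of reads behind a value was not derived. Line markers used log2(FPKM + 0.25), with a gene at the level of PI 567690 below 0.25 and of Pana above 0.75 of the way between the line means.

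The members, classes and tests were chosen with earlier results of these data known. In each class, the named genes were that with the lowest p of the difference and that with the highest mean level, among those above the median level of tested genes (5.74 FPKM). Gene lists, tissue markers and promoter motifs could not be applied because no identifier matched. Tables were made in Python 3.11.15 (pandas 2.3.3, numpy 2.4.6) and plots in matplotlib 3.10.9.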

Additional observations from a re-analysis of the deposited data

Results flagged for a closer look

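The 19 named genes are listed here because the drought effect differed between PI 567690 and Pana in the test of the difference itself (limma, adjusted p under 0.05). Values are log2 differences, PI 567690 minus Pana. Genes that moved in PI 567690 alone gave 7.16 (Glyma04g36480), 3.72 (Glyma14g10660), -6.85 (Glyma03g41330) and -8.4 (Glyma08g18200). Genes that moved in Pana alone gave -2.44 (Glyma04g42190), -2.27 (Glyma19g01860), 3.42 (Glyma12g04630) and 7.35 (Glyma14g37440). Genes with opposite changes gave 8.13 (Glyma15g06816), 9.65 (Glyma02g37990), -3.76 (Glyma06g02770) and -2.94 (Glyma06g03080). Genes that moved the same way in both lines gave -1.87 (Glyma15g38040), 3.06 (Glyma02g03230) and 2 (Glyma16g27350).

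Where neither line passed, the values were 3.45 (Glyma11g15570), 6.1 (Glyma13g31601), -2.94 (Glyma20g37600) and -5.94 (Glyma09g37290). The calls of Glyma13g31601 and Glyma09g37290 were lost in 16 and 15 of 27 alternatives, with adjusted p between 0.0129 and 0.23 and between 0.000407 and 0.235. Glyma16g27350 lost its call in 8 of 27 (adjusted p between 0.00018 and 0.0785). Of the 19 genes, 10 kept the call in all 27 alternatives, and 0 reversed, in fits that reuse the same libraries.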

How the results depend on the processing

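Counts of called genes are given as all, positive and negative differences, against 1829, 444 and 1385. Leaving out 1 library gave 786 to 2290, 143 to 638 and 643 to 1822. With PI 567690 drought libraries 2 and 3 averaged they were 999, 196 and 803, at an adjusted p under 0.01 they were 486, 89 and 397, and among genes averaging 5 FPKM or more 405, 176 and 229. Array weights with 1 variance per line gave 1208, 288 and 920, and array weights per library 13765, 3696 and 10069, with weights of 2.88 and 2.77 on 1 library in each Pana group and 0.35 or less on the other 4. Without Pana control library 1 and Pana drought library 3 together they were 2992, 985 and 2007. Without Pana drought libraries 1 and 3 together, chosen after seeing the data, they were 1111 and 172 for all and positive. A pseudocount of 0.1 gave 912 negative ones. The counts stayed within 1.5 times for scaling to an equal median ratio (1966 in all), no filter (2529), a pseudocount of 5 (2078), robust moderation (1799), a minimum difference of 1 (1825) and, chosen after seeing the data, without library 1 of both drought groups (1586). In each alternative, 0 of the genes shared with the 1829 changed sign. The alternatives reuse the same libraries and only genes called in both fits were counted, so this was nearly bound to hold. Whether the replicate numbers in the column names pair the libraries was not settled. Between the drought groups, deviations from the group means correlated at 0.656, -0.109 and 0.608 for libraries 1, 2 and 3. In the other pairs of groups, same-numbered libraries correlated at -0.055 to 0.183. Libraries with unlike numbers were not compared. A fit with the replicate number as a block called 2059 genes. Promoter motifs were not run. The number of reads behind a value was not derived, so the precision that depth gives to low genes is unknown.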

Other observations

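Called genes were spread over all 20 chromosomes, from 4.16% of tested genes on chromosome 1 to 7.07% on chromosome 6. Runs of 3 neighbouring genes with a positive difference were found in 2 places, on chromosomes 8 (from Glyma08g40420 to Glyma08g40460) and 14 (from Glyma14g06750 to Glyma14g06780). They were found after the values were seen, and no test was made of them.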
